A study of Mus musculus with 42 samples.

Results

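A set of 9 genes that hold genes of the 2-cell programme silent was followed through the RNA-seq values of mouse pre-implantation embryos. They are *Ezh2*, *Eed*, *Setdb1*, *Ehmt1*, *Suv39h2*, *Trim28*, *Cbx3*, *Rif1* and *Ncl*, chosen by name for their roles. All 9 were found among the 15737 genes analysed, and each had at least 1 FPKM per library in 1 or both columns of every comparison.

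The embryos came from superovulated ICR females mated to ICR males. Early 2-cell embryos were taken 34 h after hCG, late 2-cell embryos at 48 h and 4-cell embryos at 58 h. At the late 2-cell and 4-cell stages the groups were control, FK866 at 0.01 µM, and that dose of FK866 with NMN at 10 µM. FK866 blocks NAMPT, the enzyme that makes NMN in the salvage synthesis of NAD+, and added NMN bypasses that step. The study describes adding FK866 to zygotes, and DMSO was its negative control for inhibitors. Late 2-cell embryos were also taken after 10 nM TSA, an inhibitor of class I and II histone deacetylases. In the study TSA treatment ran from the early 2-cell to the 4-cell stage. Other late 2-cell embryos were depleted of the NAD+-dependent deacetylase Sirt1 by siRNA, *Trim21* mRNA and a SIRT1 antibody injected into zygotes. All of these are compared with the 1 late 2-cell control group in the labels, whose injection with the scrambled siRNA and *Trim21* mRNA named as negative control in the methods is not given there. Each library held 3 whole embryos, so fewer cells and less RNA per cell cannot be told apart.

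Values are FPKM, reads scaled to the length of a gene's exons and to the depth of the library, deposited as 1 column for each of the 9 groups. Read steps in the values showed that 7 columns are sums of 2 libraries and 2 columns hold 1 library, and the sums were separated into whole reads of libraries A (the deeper) and B. Library totals were 3169677 to 10003481 reads. The libraries of a group are called replicates in the methods and biological replicates in a caption, with no word on separate cultures or animals, so the p-values below measure only the spread between libraries. Of the 81 member values, 80 separated in 1 way only. The early 2-cell value of *Ezh2* separated in 2 ways, and its tests were run with each. The headers and the values tabulated in the study name different groups for 5 columns. Both readings are given here, with the group by the tables in square brackets after the header: late 2-cell TSA [4-cell control], late 2-cell Sirt1 [4-cell FK866], 4-cell control [4-cell FK866+NMN], 4-cell FK866 [late 2-cell TSA] and 4-cell FK866+NMN [late 2-cell Sirt1]. The bracketed names of the first 3 rest on equal values. All 84 of 84 genes tabulated for each 4-cell group equal the column given the bracketed name, against 4 for the control, 0 for FK866 and 3 for FK866+NMN in the column headed so. The bracketed names of the last 2 columns rest on the direction of listed genes alone, with exceptions among the genes for Sirt1. *Sirt1* itself was at 76.4 FPKM per library in late 2-cell control, 52.7 in the column headed Sirt1 and 11.3 in the column that the tables make Sirt1. It was also low in early 2-cell embryos, at 9.84, and in the column that the tables make TSA, at 7.61, so a low level was not particular to the knockdown column of either reading. Of 10 markers of the oocyte and early embryo, 6 were among the genes measured, and they summed to 1112 to 3725 FPKM per library. Most of each sum was *Dppa3*, at 762 to 3654 FPKM. In the 3 columns that the tables place at the 4-cell stage *Zp2*, *Padi6*, *Nlrp5* and *Tle6* were lower than in every other column. *Dppa3* was higher there than in every other column, and *Zp3* was within the range of the others. Of 12 cumulus and granulosa markers, 7 were among the genes measured and their summed level was 0 to 2.67 FPKM per library, except for 8.39 in 4-cell FK866 [late 2-cell TSA] and 5.41 in 4-cell FK866+NMN [late 2-cell Sirt1]. In 4-cell FK866 [late 2-cell TSA] *Cyp19a1* made up 8.12 of that sum, and 5 of the 7 markers were at 0. In 4-cell FK866+NMN [late 2-cell Sirt1] the sum was *Cyp19a1* at 2.91 and *Star* at 2.50, with the other 5 at 0. Of 4 fibroblast markers 2 were measured. *Pdgfra* alone gave 7.03 FPKM per library in 4-cell FK866 [late 2-cell TSA], where *Col1a2* was at 0. Elsewhere the 2 summed to at most 0.163. Whether such cells were present was not tested, nor was their part in the results below.

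Polycomb and heterochromatin are the main pathways by which histone methylation keeps genes off. Polycomb repressive complex 2 puts methyl groups on lysine 27 of histone H3, with EZH2 as the enzyme and EED as the subunit that binds the finished mark and stimulates the enzyme. Heterochromatin is built on methylated lysine 9 of H3, written by SETDB1, by EHMT1 (GLP) and by SUV39H2, and read by HP1 proteins such as CBX3 (HP1 gamma). TRIM28 (KAP1) brings SETDB1 and HP1 to sites bound by KRAB zinc finger proteins. RIF1, known from replication timing and DNA repair, and nucleolin (NCL), a nucleolar RNA-binding protein that works with TRIM28 and LINE1 RNA, are also known to hold down *Dux* and the 2-cell genes in mouse embryonic stem cells. The mRNA level of such a gene is not the activity of its protein, and much of the protein in the 2-cell embryo comes from the oocyte.

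The levels of 2 pairs of members ran closely together over the 9 columns, *Ezh2* with *Suv39h2* and *Trim28* with *Ncl*, and their promoters are shown for that reason. Each is 300 bases long and spans the RefSeq start site, mostly upstream, on the gene's strand, in GRCm38.p6, the assembly that mm10 names. Capitals mark matches on either strand to GGGCGG (GC box), CCAAT, the NRF1 motif (GCGC, any base, then TGCGC) or AAGATGGC (YY1). None of these matches overlap in the sequences shown.
*Ezh2* (chr6:47594981-47595280, minus strand): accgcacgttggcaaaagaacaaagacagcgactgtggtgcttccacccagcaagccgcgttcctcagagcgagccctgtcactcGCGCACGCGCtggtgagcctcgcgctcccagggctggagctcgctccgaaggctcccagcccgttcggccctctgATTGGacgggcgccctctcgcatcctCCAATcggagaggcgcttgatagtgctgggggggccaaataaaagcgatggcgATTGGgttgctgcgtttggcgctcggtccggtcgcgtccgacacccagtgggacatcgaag
*Suv39h2* (chr2:3474937-3475236, minus strand): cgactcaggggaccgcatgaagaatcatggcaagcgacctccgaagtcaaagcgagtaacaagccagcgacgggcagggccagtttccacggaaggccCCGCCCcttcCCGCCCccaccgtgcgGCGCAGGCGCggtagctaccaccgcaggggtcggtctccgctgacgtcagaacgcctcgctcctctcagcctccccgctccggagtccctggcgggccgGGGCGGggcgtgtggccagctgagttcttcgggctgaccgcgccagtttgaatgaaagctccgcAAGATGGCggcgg
*Trim28* (chr7:13023902-13024201, plus strand): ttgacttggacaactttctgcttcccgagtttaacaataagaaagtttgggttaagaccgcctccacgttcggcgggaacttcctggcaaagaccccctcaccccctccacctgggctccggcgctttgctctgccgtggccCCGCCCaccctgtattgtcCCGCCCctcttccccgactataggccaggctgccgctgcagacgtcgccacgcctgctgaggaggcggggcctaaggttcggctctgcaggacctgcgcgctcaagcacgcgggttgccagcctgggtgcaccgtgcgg
*Ncl* (chr1:86359406-86359705, minus strand): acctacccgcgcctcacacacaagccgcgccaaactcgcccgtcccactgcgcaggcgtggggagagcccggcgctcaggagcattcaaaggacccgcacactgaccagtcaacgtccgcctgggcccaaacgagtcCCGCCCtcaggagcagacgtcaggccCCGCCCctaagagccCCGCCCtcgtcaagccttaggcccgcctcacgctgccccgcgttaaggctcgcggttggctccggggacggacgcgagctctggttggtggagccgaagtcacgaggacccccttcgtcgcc
The *Ezh2* and *Suv39h2* promoters each held 1 NRF1 match, a motif in 4.6% of 32851 RefSeq promoters of the same length. That share is over all promoters, not over promoters as rich in CG dinucleotides as these. The *Ehmt1* promoter, not shown, also held 1 NRF1 match. Its levels did not run with theirs, with a Pearson's r over the 9 columns of -0.52 with *Ezh2* and -0.67 with *Suv39h2*. *Ezh2* had 3 CCAAT boxes and no GC box, and *Suv39h2* had 3 GC boxes, no CCAAT box and 1 YY1 match. GC boxes stood 2 times in *Trim28* and 3 times in *Ncl*, and neither held an NRF1 match. GGGCGG was found in 35.7%, CCAAT in 37.4% and the YY1 motif in 2.75% of all promoters. TATAAA, in 13.6% of promoters, the ETS motif CCGGAAG, in 8.86%, and the Dux motif (TGATT, any base, then AATCA), in 0.0335%, were in none of these 4. A match is a description of the letters only. All 9 promoters matched to 8 members were rich in CG dinucleotides, with 15 to 34 against a median of 7 over all promoters.

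Gene positions below are in GRCm38, by GENCODE M21. *Ezh2* (chr6:47530139-47595341, minus strand) was highest in early 2-cell embryos, at 239 FPKM per library, where its reads split into 184 and 294 or into 256 and 222 FPKM. In late 2-cell embryos the control libraries held 105 and 107, the FK866 libraries 64.8 and 89.4 and the FK866+NMN libraries 112 and 158 FPKM. Every FK866 library was below, and every FK866+NMN library above, both controls. Lower still were late 2-cell TSA [4-cell control] with 24.7 and 42.9, late 2-cell Sirt1 [4-cell FK866] with 32.8 and 44.5 and 4-cell control [4-cell FK866+NMN] with 31.7 and 39.8 FPKM, whose libraries overlapped one another. The single libraries of 4-cell FK866 [late 2-cell TSA] and 4-cell FK866+NMN [late 2-cell Sirt1] held 107 and 126 FPKM, close to or above the late 2-cell controls.

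*Eed* (chr7:89954654-89980983, minus strand), encoding the partner subunit, was also highest in early 2-cell embryos, with 126 and 185 FPKM in the 2 libraries. The late 2-cell controls held 61.5 and 42.8 FPKM, below both of these. In the other 7 columns *Eed* stayed within 45.6 to 89.5 FPKM per library, and neighbouring columns in that order overlapped except below late 2-cell Sirt1 [4-cell FK866]. *Eed* shares 261 exon bases, 6.82% of its exons, with the opposite-strand transcript E230029C05Rik, and the strand setting of the counting is not given in the sources used here.

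Among the genes for enzymes of lysine 9 methylation, *Setdb1* (chr3:95323525-95357202, minus strand) had 30.8 and 28.9 FPKM in the early 2-cell libraries and 14.2 and 6.83 in the late 2-cell controls. It was at 6.92 to 12.8 FPKM per library in every other column but 1. That column, FK866+NMN at the late 2-cell stage, held 53.3 FPKM (3094 reads) in library A and 7.39 FPKM (271 reads) in library B, so its mean of 30.4 rests on 1 library.

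*Ehmt1* (chr2:24789928-24919614, minus strand), whose product forms a dimer with EHMT2 to add methyl groups to lysine 9 in euchromatin, was among the lowest of the members. Early 2-cell libraries held 5.72 and 4.96 FPKM and late 2-cell controls 1.42 and 3.11. FK866 libraries, at 4.52 and 7.53, were above both controls, and FK866+NMN libraries, at 0.0291 (2 reads) and 2.21 (96 reads), were below both FK866 libraries. The highest values were 12.3 and 13.7 in 4-cell control [4-cell FK866+NMN] and 13.2 and 8.63 in late 2-cell Sirt1 [4-cell FK866], and the lowest column was 4-cell FK866 [late 2-cell TSA] with 0.184 FPKM from 7 reads. Late 2-cell TSA [4-cell control] held 3.47 and 5.02 FPKM and 4-cell FK866+NMN [late 2-cell Sirt1] 4.08.

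*Suv39h2* (chr2:3455815-3475031, minus strand), for an enzyme of pericentromeric heterochromatin, had 33.2 and 37.9 FPKM in early 2-cell and 15.4 and 11.5 in late 2-cell control libraries. FK866 libraries held 22.7 and 10.1 and FK866+NMN libraries 8.38 and 26.9, both spanning the controls. Like *Ezh2*, it was lowest in the 3 columns that the tables place at the 4-cell stage. These held 4.10 and 3.30 (late 2-cell TSA [4-cell control]), 0 and 3.65 (late 2-cell Sirt1 [4-cell FK866]) and 6.50 and 2.44 FPKM (4-cell control [4-cell FK866+NMN]). The library at 0 had 10003481 reads, which allows up to 0.0680 FPKM by counting error. By contrast, 4-cell FK866 [late 2-cell TSA] held 38.2 FPKM and 4-cell FK866+NMN [late 2-cell Sirt1] 16.4. *Suv39h2* shares 357 exon bases, 8.1% of its exons, with *Dclre1c* on the other strand.

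*Trim28* (chr7:12999114-13031035, plus strand) ran the opposite way, with 3.50 and 8.70 FPKM in early 2-cell and 25.4 and 18.7 in late 2-cell control libraries. FK866 libraries held 13.8 and 5.09 and FK866+NMN libraries 12.2 and 4.00, all 4 below both controls. The 3 columns placed at the 4-cell stage by the tables were highest, with 33.4 and 53.5, 57.5 and 37.6, and 40.0 and 35.9 FPKM in the same order as above. Their libraries overlapped one another and lay above both late 2-cell controls. The columns with 1 library held 13.3 and 10.8 FPKM.

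*Cbx3* (chr6:51470360-51483704, plus strand) varied most. Early 2-cell libraries held 0.414 and 0.827 FPKM, from 14 and 23 reads. Late 2-cell controls held 29.7 and 23.5, FK866 libraries 76.0 and 53.2 and FK866+NMN libraries 158 and 61.0 FPKM, so that all 4 treated libraries were above both controls. Late 2-cell TSA [4-cell control] held 159 and 107, late 2-cell Sirt1 [4-cell FK866] 88.3 and 54.5 and 4-cell control [4-cell FK866+NMN] 85.5 and 97.3 FPKM. In 4-cell FK866 [late 2-cell TSA] *Cbx3* was at 1.92 FPKM from 54 reads, next to the early 2-cell level, and in 4-cell FK866+NMN [late 2-cell Sirt1] at 28.8, within the range of the late 2-cell controls. The highest column was 214 times the lowest, against 2.76 times for *Rif1*. *Cbx3* has processed pseudogenes, and reads shared with them could not be told apart in these values.

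*Rif1* (chr2:52072832-52122383, plus strand) was the steadiest member, between 19.3 and 37.8 FPKM per library in 8 columns and at 53.3 in 4-cell FK866+NMN [late 2-cell Sirt1]. Its early 2-cell libraries, at 25.4 and 33.4 FPKM, overlapped the late 2-cell controls at 29.7 and 37.2. *Ncl* (chr1:86344719-86359400, minus strand) held 14.7 and 16.3 FPKM in early 2-cell and 35.3 and 20.5 in late 2-cell control libraries. Its FK866 libraries, at 18.4 and 4.79, and FK866+NMN libraries, at 8.47 and 4.31, were below both controls. Late 2-cell TSA [4-cell control] was highest with 46.6 and 62.2 FPKM, followed by 20.4 and 49.1 in late 2-cell Sirt1 [4-cell FK866] and 31.6 and 37.2 in 4-cell control [4-cell FK866+NMN], which overlapped each other. The columns with 1 library held 12.1 and 12.3 FPKM.

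**Figure D1:**
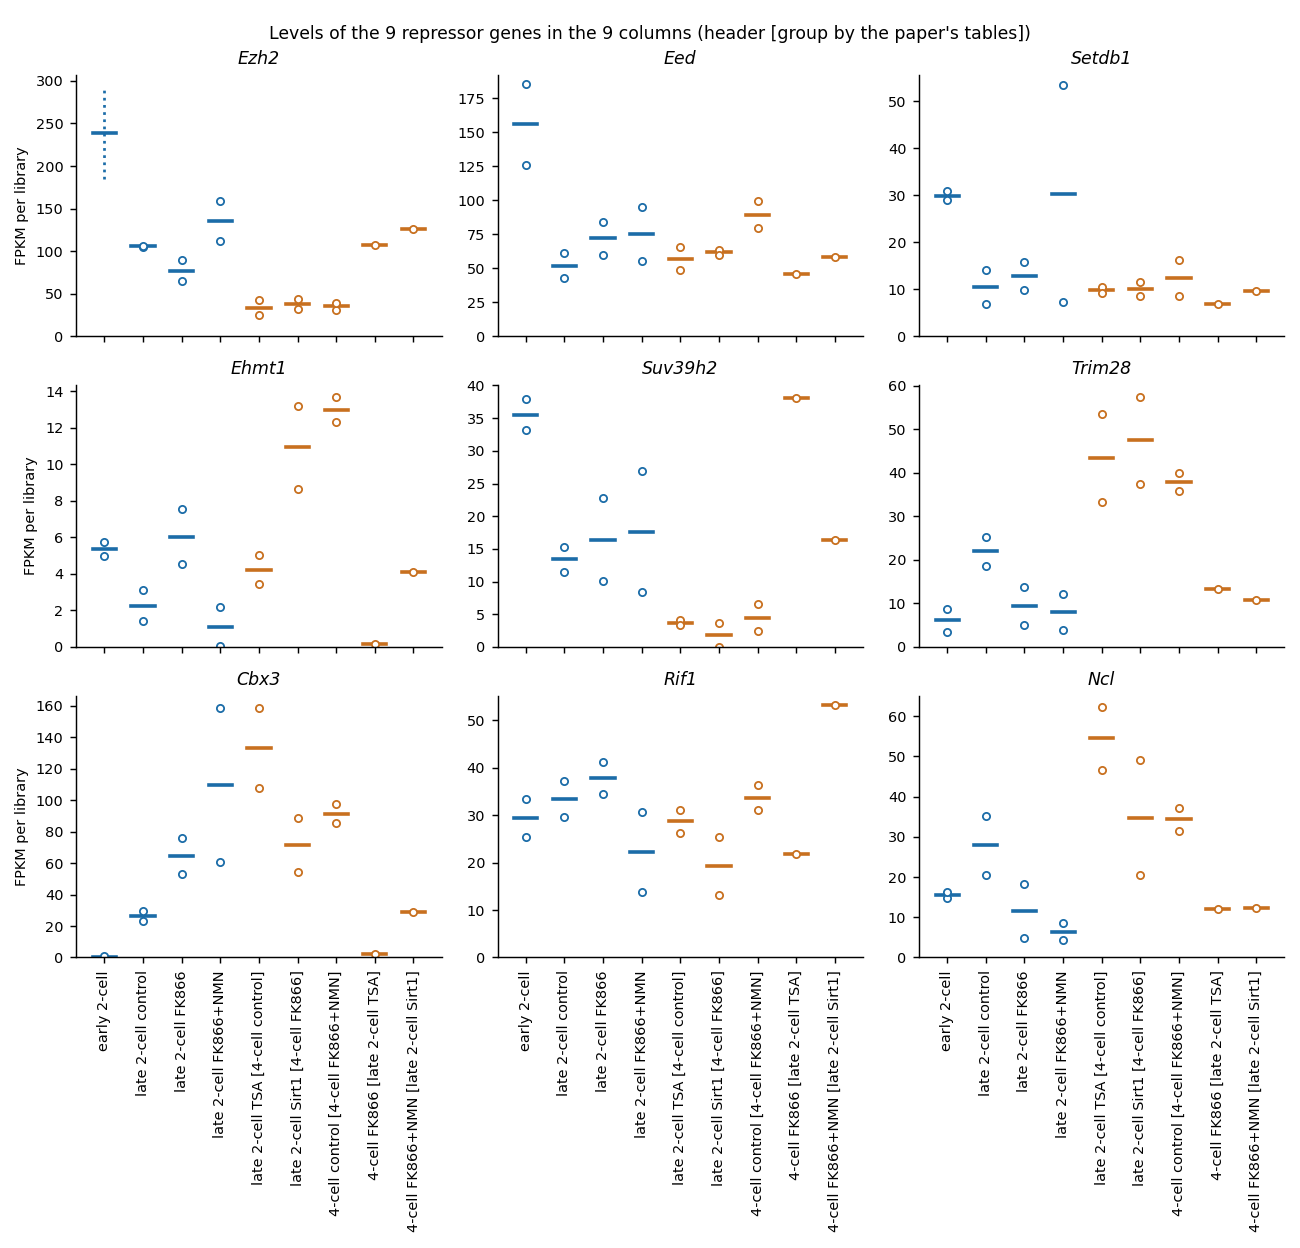
FPKM per library of the 9 genes (vertical axis, from 0) in the 9 columns (horizontal axis, header with the group by the tables in brackets). Bars are column means, open points single libraries and the dotted line the range of the 2 splits of *Ezh2*, with blue for columns named alike and orange for the 5 named differently. *Ezh2*, *Eed* and *Suv39h2* were high in early 2-cell embryos, where *Cbx3* was at 0.620 FPKM per library.

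Each comparison was read by size and by a test. The 2-fold rule counts genes whose log2(FPKM per library + 1) differs by more than 1, a scale that understates the change of low genes. Values given as fold are plain ratios of FPKM per library. The p-values come from limma on the 16 separated libraries, adjusted by Benjamini-Hochberg over 11587 genes. A gene passed at an adjusted p under 0.05, and "rose" and "fell" are used only for such genes.

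From the early to the late 2-cell stage *Cbx3* rose and *Eed* fell. *Cbx3* was 42.9-fold higher (limma log2 difference 4.09, SE 0.49, adjusted p = 0.000553), and all late libraries were above all early ones. *Eed* was 2.99-fold lower (log2 difference -1.56, SE 0.38, adjusted p = 0.0217). Without early 2-cell library B its adjusted p was 0.107, and without late 2-cell control library B 0.0972. These 2 of 9 members compare with 14.9% of all genes that passed. *Setdb1* also passed without either late 2-cell FK866+NMN library (0.0456 and 0.044), *Trim28* without library B of that column (0.0496), and *Ezh2*, with its second split, without either library of that column (0.0335 for each) or of the column headed TSA (0.0378 and 0.0382). By the 2-fold rule 6 of the 9 were called against 63.9% of all genes, with *Trim28* also higher (log2 1.70, limma adjusted p = 0.0924) and *Setdb1* (-1.42, 0.232), *Suv39h2* (-1.34, 0.301) and *Ezh2* (-1.17, 0.0806 or 0.0556 by its 2 splits) lower. Early and late libraries did not overlap for 8 of the 9, *Rif1* being the exception, against 64.8% of genes. The genes of both Polycomb members and of all 3 lysine 9 enzymes stood lower at the late 2-cell stage, with a median of the 9 members of -0.96 against -0.00 over all genes.

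The next step, from late 2-cell to 4-cell controls, depends on the column read as the 4-cell control. By the tables, *Cbx3* rose again, 5.00-fold (limma log2 difference 2.26, SE 0.49, adjusted p = 0.0167), and *Ezh2* fell 3.13-fold (-1.67, SE 0.38, adjusted p = 0.022 or 0.0155). *Cbx3* no longer passed without late 2-cell control library B (adjusted p = 0.0794) or without library A of the 4-cell column (0.109), and *Ezh2*, with its first split, without either late 2-cell control library (0.0677 and 0.0785) or library A of the 4-cell column (0.136). They are 2 of 9, against 10.7% of all genes. The median log2 fold change of the members was 0.13 and that of all genes -0.44. *Suv39h2* was 3.64-fold lower with no overlap of libraries (adjusted p = 0.27), and *Trim28*, *Ncl* and *Ehmt1* were 1.97-, 1.95- and 1.88-fold higher, also without overlap (0.427, 0.404 and 0.553). Libraries did not overlap for 6 of the 9, against 56.5% of genes, and 3 of 9 were called by the 2-fold rule against 64.5%. By the headers, *Ezh2* fell as well (-1.55, SE 0.38, adjusted p = 0.0432 or 0.0322), the only member that passed, against 6.4% of genes. With its first split it no longer passed without either library of the 2 columns compared, with adjusted p of 0.11 and 0.122 for late 2-cell control libraries A and B and 0.165 and 0.114 for those of the 4-cell control column. Without library A or B of the column headed Sirt1 it was 0.0515 or 0.0519. *Cbx3* (1.75, adjusted p = 0.0674) and *Ehmt1* (2.15, 0.0729) did not pass with all libraries, but both passed when library A or B of late 2-cell FK866+NMN was left out (0.0187 and 0.0182 for *Cbx3*, 0.0183 and 0.0186 for *Ehmt1*). By the 2-fold rule 4 of 9 were called against 58% of genes. *Cbx3* was thus higher and *Ezh2* and *Suv39h2* lower than in late 2-cell controls with no overlap of libraries, whichever column is read as the 4-cell control. By the headers libraries also did not overlap for 6 of the 9 and for 56.5% of genes.

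**Figure D2:**
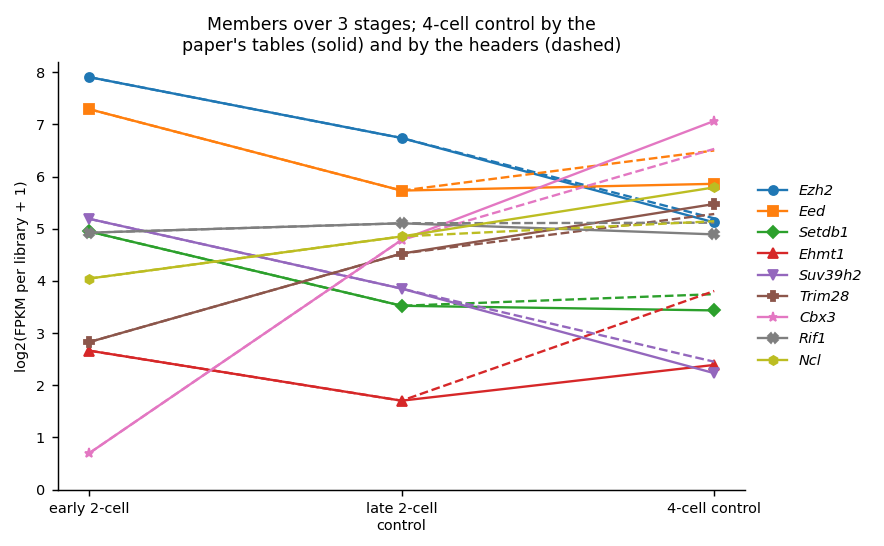
log2(FPKM per library + 1) of the 9 genes (vertical axis) in early 2-cell, late 2-cell control and 4-cell control embryos (horizontal axis). Solid lines take the 4-cell control by the tables and dashed lines by the headers. *Cbx3* goes up and *Ezh2* and *Suv39h2* go down at both steps on either reading.

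FK866 at the late 2-cell stage changed no member by limma, where 0.406% of all genes passed, and only *Cbx3* had an unadjusted p under 0.05, as did 7.82% of genes. The 2-fold rule called 4 of the 9, against 38.1% of genes. *Cbx3* was 2.43-fold higher (log2 difference 1.24, SE 0.49, adjusted p = 0.53) and *Ehmt1* 2.67-fold higher (1.12, SE 0.61, 0.581), while *Trim28* was 2.32-fold lower (-1.26, SE 0.63, 0.56) and *Ncl* 2.41-fold lower (-1.40, SE 0.64, 0.56). For these 4 and for *Ezh2*, which was 1.37-fold lower, no FK866 library overlapped the controls, against 36.9% of genes. *Eed*, *Setdb1*, *Suv39h2* and *Rif1* overlapped. The members' median was 0.27 against -0.06 over all genes. Library B of the FK866 column held 5.09 FPKM of *Trim28* and 4.79 of *Ncl*. Without it the log2 fold changes (of FPKM + 1) of *Trim28* and *Ncl* were -0.63 and -0.58.

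NMN added to FK866 also changed no member by limma at the late 2-cell stage, against FK866 (2.1% of genes passed) or against control (3.5%). These counts of 0 were not kept when library B of FK866+NMN was left out, but library A then stood alone. *Ehmt1* against FK866, and *Cbx3* and *Setdb1* against control, passed there on 1 library that no replicate checks. Library A held 0.0291 FPKM (2 reads) of *Ehmt1*, 158 of *Cbx3* and 53.3 of *Setdb1*. Library B held 2.21, 61.0 and 7.39 FPKM. Against FK866, *Ehmt1* was 5.38-fold lower (log2 difference -1.92, SE 0.61, adjusted p = 0.166) and its libraries did not overlap. *Setdb1* was 2.37-fold higher in the mean but overlapped, and without library A of FK866+NMN its log2 fold change was -0.72 in place of 1.18. These 2 of 9 compare with 52.1% called by the 2-fold rule. At an unadjusted p under 0.05 were *Ehmt1* and, with 1 of its 2 splits, *Ezh2*, against 13.3% of genes. The libraries of *Ezh2* (1.75-fold higher), *Ehmt1* and *Rif1* (1.70-fold lower) did not overlap those of FK866, 3 of 9 against 34.7% of genes. *Trim28*, *Ncl* and *Cbx3* did not lie closer to the controls than with FK866 alone. *Ehmt1*, also called with FK866, was at 6.03 FPKM per library there, 1.12 with FK866+NMN and 2.26 in control. Its FK866+NMN libraries overlapped the controls, with library B (2.21 FPKM) between them and library A (0.0291 FPKM) below both. Against control *Cbx3* was 4.13-fold higher (1.86, SE 0.49, adjusted p = 0.0725), *Ncl* 4.36-fold lower (-1.98, SE 0.64, 0.132) and *Trim28* 2.72-fold lower (-1.49, SE 0.63, 0.274). These 3 had an unadjusted p under 0.05, against 16.2% of genes, and their libraries, like those of *Ezh2*, did not overlap the controls, 4 of 9 against 39% of genes. With *Setdb1* they make 4 of 9 called by the 2-fold rule, against 57.2% of genes, with a median of 0.35 against -0.35 over all genes. The FK866, FK866+NMN and control columns enter these comparisons in common.

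At the 4-cell stage the 2 readings gave different pictures of FK866. By the headers *Cbx3* fell 47.5-fold (limma log2 difference -4.98, SE 0.60, adjusted p = 0.000518), *Ehmt1* fell 70.6-fold (-3.56, SE 0.75, 0.00959) and *Ezh2* rose 3.01-fold (1.57, SE 0.47, 0.0424 or 0.0309). These are 3 of 9 against 20% of all genes. The FK866 column then holds a single library, of 54 *Cbx3* and 7 *Ehmt1* reads, and limma takes its spread from the other columns. That library was itself never left out, so the refits below do not check its values. The calls of *Cbx3* and *Ehmt1* still passed when each of the 14 libraries from 2-library columns was left out in turn. That of *Ezh2*, with its first split, passed in 10 of the 14 refits, with an adjusted p of 0.127 and 0.0769 without libraries A and B of the 4-cell control column and of 0.053 and 0.0529 without late 2-cell control libraries A and B. *Suv39h2*, 8.53-fold higher (2.95, SE 0.98, adjusted p = 0.0618), passed in 4 of the 14, without either late 2-cell FK866+NMN library (0.044 for each) or either library of the column headed Sirt1 (0.0353 and 0.0359). By the 2-fold rule 6 of the 9 were called, against 74.7% of genes, and the single library lay outside both control libraries for all 9 and for 87.9% of genes. By the tables no member passed, with 0 members at an unadjusted p under 0.05, against 5.61% of genes, and 0.104% of all genes passing. *Ehmt1*, 2.57-fold higher (1.17, SE 0.61, adjusted p = 0.874), was the 1 member called by the 2-fold rule, against 34.6% of genes. *Suv39h2* was 2.03-fold lower by the plain ratio (log2 fold change of FPKM + 1, -0.74). *Cbx3* was 1.86-fold lower (-0.90, SE 0.49, 0.897), and it, *Ehmt1* and *Rif1* (1.49-fold lower) did not overlap, 3 of 9 against 36.5% of genes. The effect of FK866 at the 4-cell stage differed from that at the late 2-cell stage for *Cbx3* and *Ehmt1* by the headers, where 9.85% of all genes passed that test, and for no gene by the tables (0%).

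NMN with FK866 at the 4-cell stage, read by the headers, compares 2 single libraries. *Cbx3* was 15.0-fold higher there, and no replicate checks that difference. Limma, with an SE of 0.69 taken from the other columns alone, gave a log2 difference of 3.35 and an adjusted p of 0.0179, for 1 member of 9 against 6.7% of genes. By the 2-fold rule *Ehmt1* (22.2-fold) and *Rif1* (2.45-fold) were also higher and *Suv39h2* lower (2.32-fold), 4 of 9 against 59.7%. By the tables no member passed by limma and none was called by the 2-fold rule, against 0.129% and 26.3% of genes, and 0 had an unadjusted p under 0.05, against 3.58% of genes. *Eed* (1.45-fold higher) and *Rif1* (1.75-fold higher) had libraries that did not overlap, 2 of 9 against 33.4% of genes, while *Suv39h2*, 2.45-fold higher by the plain ratio and 0.95 on the log2(FPKM + 1) scale, overlapped.

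TSA against the late 2-cell control turned on the same columns. By the tables *Cbx3* fell 13.8-fold (limma log2 difference -3.23, SE 0.60, adjusted p = 0.00844), 1 of 9 against 8.49% of genes, and still passed in all 14 refits without 1 library. The TSA column of that reading is a single library that was never left out, so the refits do not check the value the call rests on. *Suv39h2* was 2.84-fold higher and *Ehmt1* 12.3-fold and *Ncl* 2.31-fold lower in that single library, which makes 4 of 9 past 2-fold against 59.8%. It lay outside both control libraries for 7 of 9 and for 74.6% of genes. By the headers the same contrast is the one given above for the 4-cell control by the tables, with *Cbx3* up and *Ezh2* down. The direction of *Cbx3* under TSA therefore differs between the readings. *Sirt1* knockdown changed no member by the tables, where 0.975% of genes passed and 0 members had an unadjusted p under 0.05, against 8.57% of genes. The Sirt1 column of that reading is also a single library, which weakens the test, so these counts of 0 do not show that the members were unchanged. *Ncl*, 2.26-fold lower, was the 1 member called by the 2-fold rule, against 44.5% of genes, and *Trim28* was 2.03-fold lower by the plain ratio (-0.96 on the log2(FPKM + 1) scale). By the headers *Ezh2* fell 2.74-fold (-1.45, SE 0.38, adjusted p = 0.0484 or 0.0358), 1 of 9 against 8.07%. With its first split it passed in 6 of 14 refits, with an adjusted p of 0.204 and 0.084 without libraries A and B of the Sirt1 column, 0.121 and 0.132 without those of the late 2-cell control, 0.0654 and 0.0658 without those of the 4-cell control column and 0.0557 and 0.0559 without those of late 2-cell FK866. Without either late 2-cell FK866+NMN library *Suv39h2* (0.0473 and 0.0474), *Ehmt1* (0.0244 and 0.0251) and *Cbx3* (0.0388 and 0.0379) passed as well. *Suv39h2* also passed without library B of the Sirt1 column, which then held library A alone, at 0 FPKM of *Suv39h2*. By the 2-fold rule 5 of 9 were called there against 60.9% of genes.

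**Figure D3:**
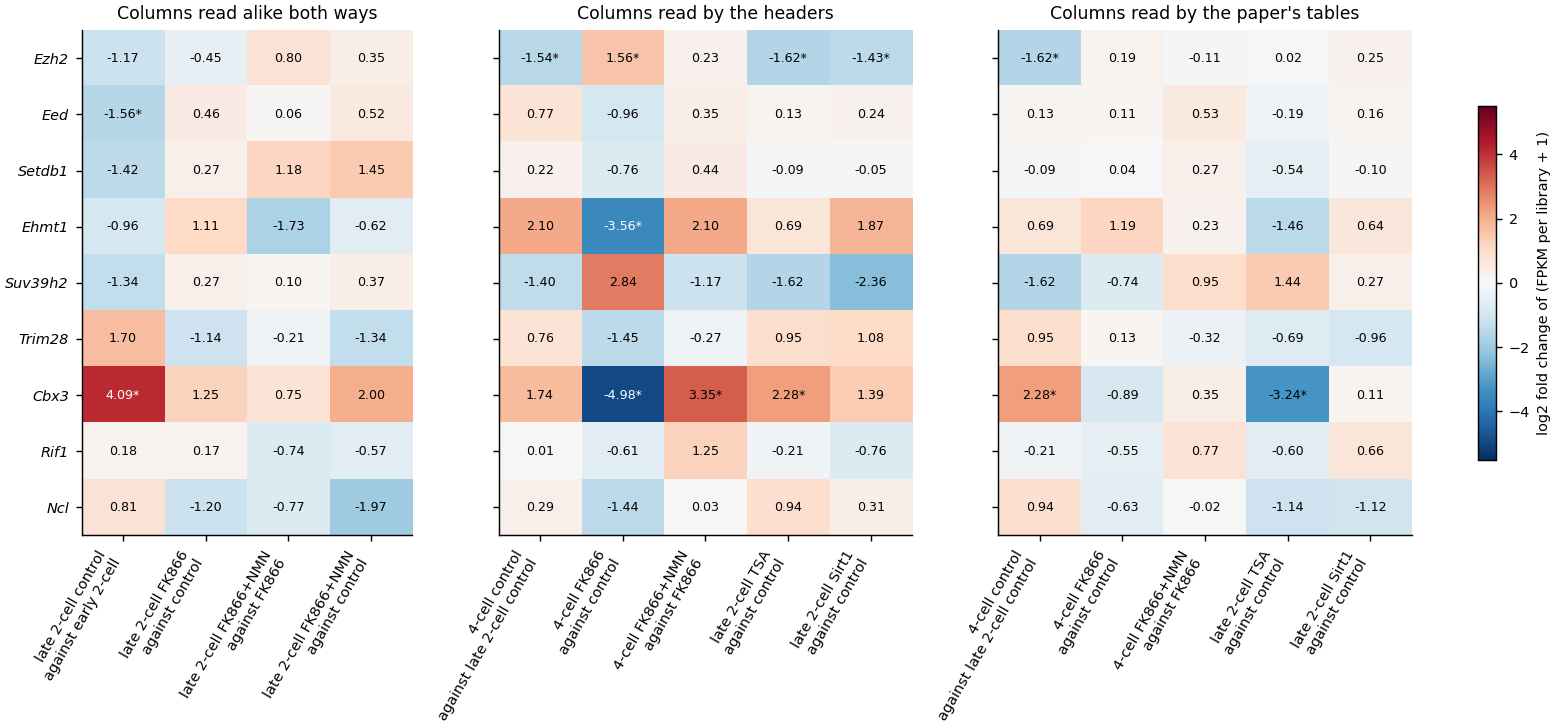
Differences of log2(FPKM per library + 1) for the 9 genes (rows) in 14 comparisons (columns), red for higher and blue for lower in the first group named, with the value in each cell. A star marks a limma adjusted p under 0.05 with both splits of *Ezh2*. *Cbx3* has 6 starred cells, 5 of which need a column that the headers and the tables name differently and 1 of which compares 2 single libraries, and the left panel has stars for *Eed* and *Cbx3* at the first step only.

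Some members ran together over the columns. Pearson's r of log2(FPKM per library + 1) over the 9 columns was 0.89 for *Ezh2* with *Suv39h2* and 0.89 for *Trim28* with *Ncl*, and 0.80 for *Eed* with *Setdb1*. It was -0.91 for *Ezh2* with *Trim28* and -0.90 for *Suv39h2* with *Trim28*. These values describe 9 columns that share stages and treatments, and *Rif1* reached no value beyond 0.25 with any other member. Among 6782 genes, the one most like *Ezh2* was *Izumo1r* (r = 0.98), which encodes the egg receptor for sperm, and that most like *Suv39h2* was *Meis2* (0.99). The others were *Rtf1* for *Eed* (0.90), *Mtfmt* for *Setdb1* (0.95), *H3f3c* for *Ehmt1* (0.94), *Rpl19-ps11* for *Trim28* (0.98), *Pramel33* for *Cbx3* (0.97), *B2m* for *Rif1* (0.92) and *Gm15454* for *Ncl* (0.97). Each is the highest value among 6782 genes over only 9 columns. How high the best match of any gene would be was not tested, so shared regulation cannot be read from these values.

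**Figure D4:**
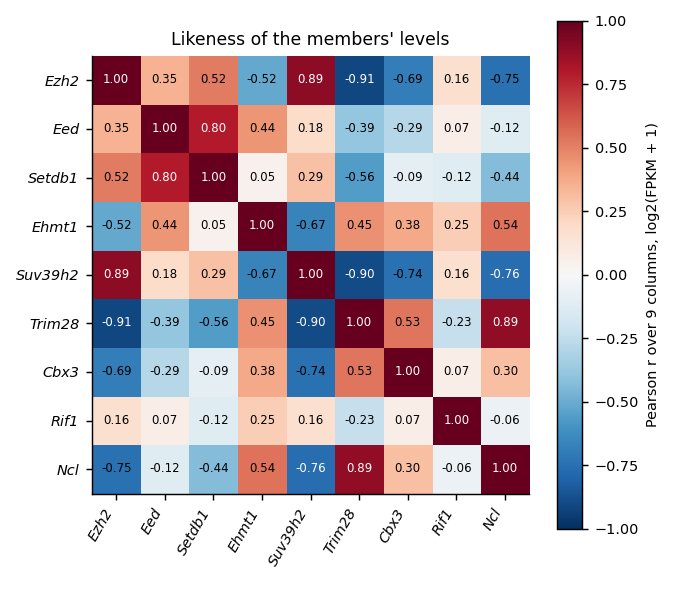
Pearson's r between the levels of each pair of the 9 genes, over the 9 columns, on the log2(FPKM per library + 1) scale. *Ezh2* and *Suv39h2* are alike at 0.89, and both are opposite to *Trim28*.

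The partners of these genes were read from lists drawn up by function. Of the other Polycomb repressive complex 2 genes 4 of 10 were measured, and *Mtf2*, which helps the complex onto DNA, rose from early to late 2-cell from 6.07 to 34.6 FPKM per library (adjusted p = 0.0184), where *Ezh2* and *Eed* were lower. *Phf19*, also an accessory subunit, rose in the column that the tables make Sirt1, from 0 in late 2-cell control to 2.84 FPKM (adjusted p = 0.00413). That column holds 1 library, so no replicate checks the *Phf19* value, and *Phf19* was at 0 to 0.0395 FPKM in every other column. Of the complex 1 genes 11 of 26 were measured. From early to late 2-cell 2 of 10 were more than 2-fold higher and 3 lower, against 32.2% and 31.7% of all genes. Their median was -0.34, and *Scmh1* was the lowest (log2 -1.61, limma adjusted p = 0.128). *Phc2* rose from early to late 2-cell, from 16.5 to 65.0 FPKM (adjusted p = 0.0265), and by the tables fell to 6.46 FPKM in 4-cell controls (0.00383). There *Bmi1* fell too, from 286 to 25.9 FPKM (0.0127), as did *Scmh1*, from 5.71 to 0.0392 FPKM (0.0474). The median of complex 1 at that step was -0.93, with 5 of 10 past 2-fold lower and 0 higher, against -0.44 and 41.3% over all genes. *Phc2* and *Scmh1* there fall outside the rule for naming genes and were named after their values were seen.

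Of the other lysine 9, H4K20 and HP1 genes 8 of 24 were measured. None passed at any of the 4 comparisons that both readings share, where *Morc2a* (log2 2.06, limma adjusted p = 0.129) was the highest and *Atf7ip* (-1.06, 0.213) the lowest from early to late 2-cell. Of other reported repressors of *Dux* or 2-cell genes 6 of 15 were measured. *Hdac1* rose from early to late 2-cell, from 1.75 to 24.6 FPKM (adjusted p = 0.0017), as *Cbx3* did. It was the 1 of these 6 more than 2-fold higher, against 32.2% of all genes. Another 2 were lower, against 31.7%, and the median of the 6 was -0.62. *Pias4* was the lowest (log2 -1.24, limma adjusted p = 0.208). *Kdm1a*, which removes methyl groups from lysine 4, was at 16.0 FPKM in late 2-cell control and fell to 0.825 in the column that the tables make TSA (adjusted p = 0.00205), as *Cbx3* did. The TSA column of that reading holds 1 library, so no replicate checks the *Kdm1a* value. *Ep400* fell by the tables from 16.9 FPKM in late 2-cell to 4.43 in 4-cell controls (0.0297) and was also named after its values were seen. Of the erasers of lysine 9 and 27 methylation 5 of 10 were measured. *Kdm4c* rose from 0.0152 to 9.50 FPKM (adjusted p = 0.031) and *Kdm3a* from 2.53 to 27.5 FPKM (0.00563, named after its value was seen) from early to late 2-cell, both enzymes that act on lysine 9.

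The 2-cell genes that these repressors are known to hold down were 18 of 21 measured. From early to late 2-cell *Tdpoz1* rose from 1.77 to 34.2 FPKM (adjusted p = 0.0103) and 11 of 17 tested genes were more than 2-fold higher, against 32.2% of all genes, with 2 lower against 31.7%. By the tables, 13 of 15 were more than 2-fold lower in 4-cell than in late 2-cell controls, against 41.3% of all genes, and 8 of the 16 in the limma fit passed, against 10.7% of all genes. By the headers 12 of 15 were more than 2-fold lower, against 33.8%, and 6 of 16 passed, against 6.4%. By the tables *Zscan4c* had the largest difference of the list on the log2(FPKM + 1) scale, from 87.1 to 0.721 FPKM (limma adjusted p = 0.00122). By the headers it was *Zscan4a*, from 55.5 to 2.44 FPKM (limma adjusted p = 0.0146). FK866 left 2 of 17 more than 2-fold higher (18.1% of all genes) and 1 lower (20%) at the late 2-cell stage, and none passed. *Tdpoz3*, at 5.58 FPKM against 0.398 in control, had the largest difference (limma adjusted p = 0.58). *Duxf3*, a copy of *Dux*, was higher with FK866, at 2.12 FPKM per library, than in control, at 0.589, or with FK866+NMN, at 0.904. The 2-fold rule did not call it, but the log2(FPKM + 1) scale understates changes at such low levels. With NMN added to FK866, 2 of 17 were higher (18.9%) and 4 lower (33.3%), and *Usp17ld*, of a family of deubiquitinases, rose from 1.46 to 18.3 FPKM (adjusted p = 0.0428). At the 4-cell stage by the headers 10 of 16 were higher with FK866, against 41.8% of all genes, and 1 lower, against 32.9%, and 4 of 16 passed, against 20% of genes. These were *Tdpoz3*, *Usp17ld*, *Usp17lc* and *Usp17la*, all higher in the single FK866 library. Read by the tables, 4 of 12 were higher, against 21.2%, and 1 lower, against 13.4%, and none passed. In the column that the tables make TSA *Tdpoz3* rose to 30.3 FPKM (0.0461), while *Zscan4f* fell from 108 to 16.9 FPKM (0.0113, named after its value was seen). The levels of both genes in that column come from its 1 library, which no replicate checks. The families of 2-cell genes listed here are multigene, and reads that fit several copies could have been split or dropped between them.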

How the data were processed

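Only the RNA-seq data were used, 18 samples in 9 groups. The 24 H3K27ac CUT&Tag samples were left out. As the labels and methods give it, base calls came from CASAVA 1.4, adapters were removed with Trim Galore, HISAT2 aligned the reads to mm10, and featureCounts assigned them to genes. The authors deposited FPKM values, 1 column per group, for 2 libraries of 3 embryos each. Versions of the aligner and the counter, the annotation and the strand setting are not given in the sources used here. The authors' DESeq2 test needs counts, which these values are not. Of 15747 complete rows on chromosomes 1 to 11 (the last in part), 15737 have a symbol listed once, and 15360 of these an exon length in GENCODE annotation of GRCm38. Values times exon length gave the value of 1 read in each library and 97.6% to 97.8% of values as whole reads, within the rounding of the last printed digit. Summed columns were divided by 2. No per-sample column was left unmapped.

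A pseudocount of 1 FPKM was added before logs were taken, and a gene entered a comparison if 1 of its columns reached 1 FPKM per library. Limma 3.58.1 in R 4.3.3 was fitted with a trend on log2(FPKM + 1) of 16 libraries in 9 columns, with 11587 genes and 7 residual and 2.697 prior degrees of freedom. The separation and the fit were tested on simulated data. Intervals and floors (3 reads) cover counting error only. Named genes are the 9 members, from each list and comparison the highest and the lowest gene past 2-fold, and for each member the gene of highest r with at least 1 FPKM in 5 or more columns. The members and lists were chosen with earlier results of these data known. Python 3.11.15, numpy 2.4.6, pandas 2.3.3 and matplotlib 3.10.9 were used. Alternatives were pseudocounts of 0.1 and 5, no minimum or one of 5 FPKM, centring on the median of all genes, and columns not divided by their number of libraries. Others were limma in place of fold change, and each library of the 2-library columns left out.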

Additional observations from a re-analysis of the deposited data

Results flagged for a closer look

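The effect of FK866 on 2 members differed between the 4-cell and the late 2-cell stage when the columns were read by their headers. The difference of the log2 differences (4-cell minus late 2-cell) was -6.22 for *Cbx3* (SE 0.77, limma adjusted p = 0.00139) and -4.69 for *Ehmt1* (SE 0.97, adjusted p = 0.0163), where 9.85% of all genes passed this test. *Cbx3* and *Ehmt1* were higher with FK866 in both late 2-cell libraries and lower in the single 4-cell library. For *Ezh2* the difference was 2.04, with an adjusted p of 0.0494 with 1 split of its early 2-cell reads and 0.0661 with the other. With the columns read by the tables the same differences were -2.14 for *Cbx3* (SE 0.69, adjusted p = 0.416), 0.05 for *Ehmt1* (SE 0.87, adjusted p = 1) and 0.69 for *Ezh2* (adjusted p = 0.778 or 0.771). The test was added after the data were seen.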

How the results depend on the processing

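The median log2 fold change of the 9 members kept its value in 89 of 98 recomputations with another setting, to within the spread between libraries or, where both columns hold 1 library, the counting interval. The 98 count the contrast of late 2-cell control with the column headed TSA under both of its names. They also count 1 recomputation without a minimum for each of the 14 comparisons. Those could not differ, because every member already reached 1 FPKM per library in every comparison. A minimum of 5 FPKM could only drop members. From early to late 2-cell the median was -1.17 with a pseudocount of 0.1 and -0.51 with one of 5. Centred on the median of all genes it was -1.38 for 4-cell FK866 against control by the headers, 0.64 for FK866+NMN against FK866 there, and 0.57 for the column headed late 2-cell TSA against late 2-cell control, which the tables read as the 4-cell control. Without division by the number of libraries it was -1.95 for 4-cell FK866 by the headers, -1.58 for TSA and -0.83 for Sirt1 by the tables, since those columns hold 1 library against 2. When 1 library was left out it ranged from -1.02 to -0.33 from early to late 2-cell, from -0.38 to 0.58 for FK866+NMN against FK866 and from -0.62 to 0.34 against control at the late 2-cell stage. The early to late values without early 2-cell library A (-0.43) or B (-0.33) are medians of 8 members. *Ezh2*, with its 2 splits, drops out there, so they mix the loss of a library with that of a gene. With all 9 members and without late 2-cell control library A the value was -0.63. The median ranged from 0.17 to 0.78 for the 4-cell control by the headers and from -0.17 to -0.016 for 4-cell FK866 by the tables. *Setdb1* turned from higher to lower with FK866+NMN when library A was left out, with a range of -0.72 to 1.97 against FK866 and of -0.46 to 2.24 against control, and no other member called past 2-fold changed sign. Of 47 calls past 2-fold by the members, a pseudocount of 5 lost 12 and gained 0, one of 0.1 lost 0 and gained 3, centring lost 3 and gained 10, no division lost 2 and gained 11, and limma's fold changes lost 2 and gained 3. The cause of the other changes was not tested. Members at under 1 FPKM rest on 0 to 23 reads per library, and 2 columns on 1 library. No paired analysis was possible because the separated libraries carry no replicate numbers.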
